A study of Mus musculus with 6 samples.

Results

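The transcripts of 10 CC and CXC chemokine ligands of macrophages (Ccl2, Ccl3, Ccl4, Ccl5, Ccl6, Ccl7, Ccl9, Cxcl2, Cxcl10 and Cxcl16) were followed in RAW264.7, a mouse macrophage-like line. The genes were chosen by name, and all 10 were found among the 56636 rows of the deposited gene table. All cells were labelled WT and grown with fetal bovine serum. They received either 25-HC, the compound's only name in the labels and without a dose, or vehicle, in both cases for 24 h and with 3 libraries per group. Whether the libraries stem from different cultures is not stated, so each p-value speaks of library spread alone, and that spread may be technical. The title of the series concerns cholesterol homeostasis and tumour metastasis, and the comparison made here is of ligand transcripts in cells with and without 25-HC.

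Chemokines are small secreted proteins that steer leukocytes along concentration gradients by binding G protein-coupled receptors. The CC ligands have their first cysteines side by side, while the CXC ligands have another residue between them. Macrophages are a main source of both, and several of the genes are switched on within hours by NF-kB or by interferon signalling, with messages that are often short-lived. In the mouse, Ccl3 and Ccl4 are neighbours on chromosome 11, in a run of coding genes that reads Ccl5, Ccl9, Ccl6, Ccl3 and Ccl4. Ccl2 and Ccl7 are neighbours elsewhere on chromosome 11, where Cxcl16 lies too, and Cxcl2 and Cxcl10 are on chromosome 5 (RefSeq order, GRCm38.p6).

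RefSeq promoters (250 bases before to 50 after the gene's start, build GRCm38.p6) matched 5 of the 10 ligands, namely Ccl3, Ccl6, Ccl9, Cxcl2 and Cxcl10. The 2 CXC promoters are shown because they hold the motifs through which these genes are known to be switched on. Capitals mark NF-kB motifs (the kappa B consensus), the interferon-stimulated response element (GAAA, any 2 bases, GAAA) and the AP-1 motif TGANTCA, each searched on both strands. In Cxcl2 (chr5:90903649-90903948, plus strand) the capitals are 2 kappa B matches that overlap and begin 97 and 96 bases before the start. In Cxcl10 (chr5:92348840-92349139, minus strand) they are, in reading order, the interferon element, 2 kappa B matches and the AP-1 motif.
Cxcl2: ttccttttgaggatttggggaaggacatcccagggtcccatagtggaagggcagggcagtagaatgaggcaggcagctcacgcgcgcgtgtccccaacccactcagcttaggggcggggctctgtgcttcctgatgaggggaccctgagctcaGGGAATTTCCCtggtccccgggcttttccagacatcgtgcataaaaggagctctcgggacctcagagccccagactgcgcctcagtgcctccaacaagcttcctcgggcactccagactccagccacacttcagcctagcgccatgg
Cxcl10: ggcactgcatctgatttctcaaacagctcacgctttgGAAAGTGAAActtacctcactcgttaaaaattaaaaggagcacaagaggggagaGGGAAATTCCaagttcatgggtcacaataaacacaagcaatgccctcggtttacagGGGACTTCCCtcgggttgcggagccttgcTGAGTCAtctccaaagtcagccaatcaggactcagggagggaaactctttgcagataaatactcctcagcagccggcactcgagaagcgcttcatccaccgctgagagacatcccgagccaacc
A kappa B match was found in 3 of the 5 ligand promoters (Ccl9, Cxcl2 and Cxcl10), an interferon element in 1 (Cxcl10) and an AP-1 motif in 2 (Ccl9 and Cxcl10), against 4.51%, 3.44% and 7.81% of the 32851 promoters in the table. A match describes the letters and not a bound site.

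The 3' untranslated regions were compared because AU-rich motifs there are known to shorten the life of chemokine messages. In GENCODE M21 the heptamer TATTTAT, counted with overlapping copies, occurred 7 times in Cxcl2, once each in Ccl3 and Ccl4, and in none of the other 7 ligands. Of the tested genes compared, 18.7% had 1 heptamer and 9.65% had 2 or more. The shorter motif ATTTA was more widely spread. It occurred 11 times in Cxcl2, 5 in Ccl3 and in Ccl9, 4 in Ccl6 and 3 in Cxcl10. Ccl4, Ccl7 and Cxcl16 had 2 each, Ccl2 had 1 and Ccl5 had 0. The first heptamer site of Cxcl2, Ccl3 and Ccl4 is shown, with only that first heptamer in capitals. In the Cxcl2 stretch a further copy overlaps it and runs on in lower case.
Cxcl2 site: gagagttcactTATTTATttatctatgta
Ccl3 site: gtatttgtgacTATTTATtctgaaagact
Ccl4 site: attatttctatTATTTATgttttagttat

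The values are TPM, transcript abundances scaled by the authors for transcript length and for library total, and sequencing depth is unknown. Levels of different genes can be set side by side, but less safely for genes of unlike length in vehicle 1 and 2. The 25-HC libraries were alike, with 11971 to 12005 genes at 1 TPM or more. The vehicle libraries were scattered, with 11238, 9492 and 11994 such genes in vehicle 1, 2 and 3. Vehicle 1 and 2 also showed a trend with transcript length. Their log2 difference from the 25-HC mean had a median of 0.18 in the shortest sixth of genes and -0.78 in the longest in vehicle 1, -0.051 and -1.63 in vehicle 2, and 0.051 and 0.039 in vehicle 3. Of 9 macrophage markers 8 were measured and Mrc1 was listed at 0 in all libraries, and their summed level was 2530 to 2551 TPM in 25-HC and 1735 to 2591 TPM in vehicle. The sum is mostly Cd68 and Lyz2, and single markers differed from it. Itgam was at 62.4 to 71.4 TPM in 25-HC and at 12.5, 0.53 and 51.0 TPM in vehicle, and Adgre1 at 14.3 to 18.6 TPM in 25-HC and at 4.21, 1.15 and 11.9 TPM in vehicle, while Cd14 was at 362 to 374 TPM in 25-HC and at 559.8, 354 and 548 TPM in vehicle. Their part in the ligand values was not tested. Markers of neutrophils, lymphocytes, fibroblasts, epithelial and dendritic cells summed to at most 2.84 TPM per list in any library. In such bulk samples, fewer cells making a message and less message per cell cannot be told apart.

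The 10 ligands together made up 0.533%, 0.546% and 0.536% of all TPM in the 25-HC libraries and 0.491%, 0.152% and 0.577% in vehicle 1, 2 and 3. The summed ligand level of the 25-HC libraries therefore lay between vehicle 1 and vehicle 3, and vehicle 2 stood far below all others. Levels covered 3 orders of magnitude. In each of the 6 libraries Ccl3 was highest and Ccl4 next. In 25-HC cells the order went on with Ccl2, Ccl9, Cxcl2, Ccl7, Ccl5 and Cxcl16, each apart from the next in all 3 libraries, and ended with Cxcl10 and Ccl6, whose values overlapped. Vehicle 1 and 3 had the same order down to Cxcl16. Vehicle 2 did not: there Ccl9 stood above Ccl2 and Ccl5 above Ccl7. Among vehicle libraries 6 of the 9 neighbours in the order of means overlapped.

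**Figure D1:**
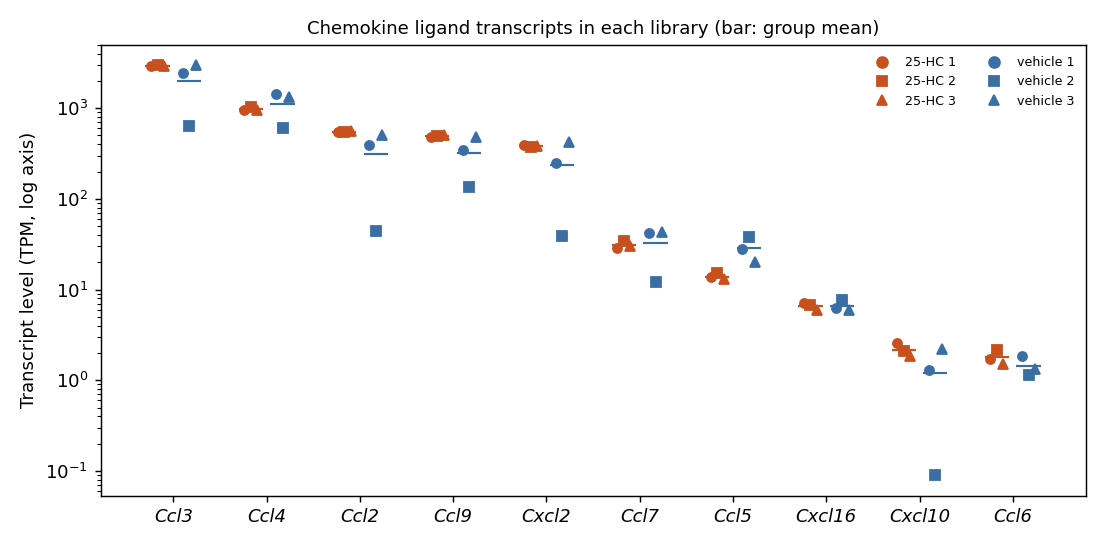
Transcript level of each ligand in each library in TPM on a log axis, with 25-HC (orange) left of vehicle (blue), symbols for replicate numbers and bars for group means. The 25-HC libraries lie close together, while vehicle 2 lies far below the others for Ccl2, Ccl3, Cxcl2 and Cxcl10 and above them for Ccl5.

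The 12092 genes averaging 1 TPM or more were tested together. None of the 10 ligands was called different between 25-HC and vehicle after adjustment (limma on log2(TPM + 1), two-sided, smallest adjusted p = 0.389, all 10 tested). With vehicle libraries so scattered, this does not show that the ligands were equal. Over all genes the test called 0.00827% higher and 0% lower, with 8.24% higher and 2.94% lower at an unadjusted p under 0.05. A simpler count asks in how many ligands every 25-HC library lay above, or below, every vehicle library. Ccl2 was the 1 ligand that separated upward and Ccl5 the 1 that separated downward, against 22.6% and 8.1% of all tested genes. That count is not above the background, so the ligands did not stand out by it. The median log2 difference of the ligands was 0.43, and that of all tested genes was 0.52. For a single ligand, exact permutation of 3 and 3 libraries has a smallest possible p of 0.1.

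Ccl2 and Ccl7 are monocyte attractants that act through Ccr2, and their genes are neighbours. Ccl2 was at 550.3, 539 and 560.1 TPM in the 25-HC libraries and at 391, 44.6 and 503 TPM in vehicle 1, 2 and 3. All 25-HC libraries were above all vehicle libraries, but vehicle 3 was close to them. The mean was 549.9 ± 10.3 TPM in 25-HC and 313 ± 239 TPM in vehicle (SD, n = 3 each), a log2 difference of 1.41 (SE 0.89, adjusted p = 0.395 by limma). That difference was 0.31 without vehicle 2 and 0.13 against vehicle 3 alone, and the fold over vehicle 3 was 1.09.

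Ccl7 was at 28.8, 34.0 and 30.0 TPM in 25-HC and at 41.8, 12.1 and 43.4 TPM in vehicle. The 25-HC libraries lay below vehicle 1 and 3 and above vehicle 2, so the groups overlapped. The log2 difference was 0.13 (SE 0.51, adjusted p = 0.863 by limma), and it was also 0.13 after length correction (adjusted p = 0.853 by limma). It turned to -0.45 without vehicle 2 (adjusted p = 0.168 by limma) and to -0.48 after median-ratio rescaling (adjusted p = 0.297 by limma). That rescaling divides each library by 1 factor, 1.24 to 1.26 in 25-HC and 0.973, 0.409 and 1.32 in vehicle 1, 2 and 3, and brings the median difference of all genes to 0.0085.

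The ratio of both messages within a library does not depend on such factors. There was 0.0524, 0.0630 and 0.0536 as much Ccl7 as Ccl2 in the 25-HC libraries, against 0.107, 0.271 and 0.0863 in vehicle. All 25-HC libraries were below all vehicle libraries, including vehicle 3 (two-sided exact permutation p = 0.1, the smallest possible here). This pair was singled out after its values were seen. Of all pairs of tested genes above 0 in every library, 37.3% had ratios without overlap.

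Ccl3 and Ccl4 (MIP-1 alpha and MIP-1 beta) are inflammatory attractants of monocytes and T cells, and Ccl3 acts on Ccr1 among other receptors. Ccl3 was at 2892, 2979 and 2900.4 TPM in 25-HC and at 2414, 639 and 2969 TPM in vehicle. Vehicle 3 lay within the 25-HC range, so the groups overlapped, at 2924 ± 47.9 TPM in 25-HC and 2007 ± 1217 TPM in vehicle (SD, n = 3 each). The log2 difference was 0.82 (SE 0.57, adjusted p = 0.405 by limma), with a value of 0.13 without vehicle 2 and -0.022 against vehicle 3 alone.

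Ccl4 was at 959.9, 1017 and 956 TPM in 25-HC and at 1437, 604 and 1319 TPM in vehicle. Here the treated libraries lay below vehicle 1 and 3 and above vehicle 2. The mean was 978 ± 34.5 TPM in 25-HC and 1120.0 ± 451 TPM in vehicle (SD, n = 3 each), with a log2 difference of -0.098 (SE 0.34, adjusted p = 0.844 by limma). It was -0.49 without vehicle 2 (adjusted p = 0.0943 by limma) and -0.73 after median-ratio rescaling (adjusted p = 0.297 by limma). After length correction it was -0.050 (adjusted p = 0.925 by limma), and against vehicle 3 alone it was -0.43. That last comparison, in which vehicle is a single library assumed to vary like the 25-HC libraries, was the only setting to call a ligand (adjusted p = 0.0357 by limma), where 4.52% of genes were called higher and 6.33% lower. The adjusted p of Ccl4 under the other settings was 0.0943 to 0.925, and without vehicle 1 or vehicle 3 its difference was 0.13 or 0.069.

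Within a library, Ccl4 stood at 0.332, 0.342 and 0.330 of Ccl3 in 25-HC, against 0.595, 0.945 and 0.444 in vehicle. The 3 treated libraries were within a narrow range and below every vehicle library (two-sided exact permutation p = 0.1, the smallest possible here). Ratios without overlap were found in 37.3% of all pairs of tested genes above 0 in every library. Both transcripts fall in the shortest sixth by length, where the median of all genes was 0.18, -0.051 and 0.051 on the log2 scale in vehicle 1, 2 and 3 relative to 25-HC. Ccl3 deviated there by -0.28, -2.19 and 0.022, and Ccl4 by 0.56, -0.69 and 0.43. The ratio in vehicle 2 was farther from vehicle 3 than vehicle 3 was from 25-HC, so the spread within vehicle exceeds the gap to its nearest library. In GENCODE M21 the genes do not overlap, but the RefSeq span of Ccl4, which counts in a predicted transcript, reaches into Ccl3 on the opposite strand, and the strand setting of the authors' counting is not given in the sources used here.

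**Figure D2:**
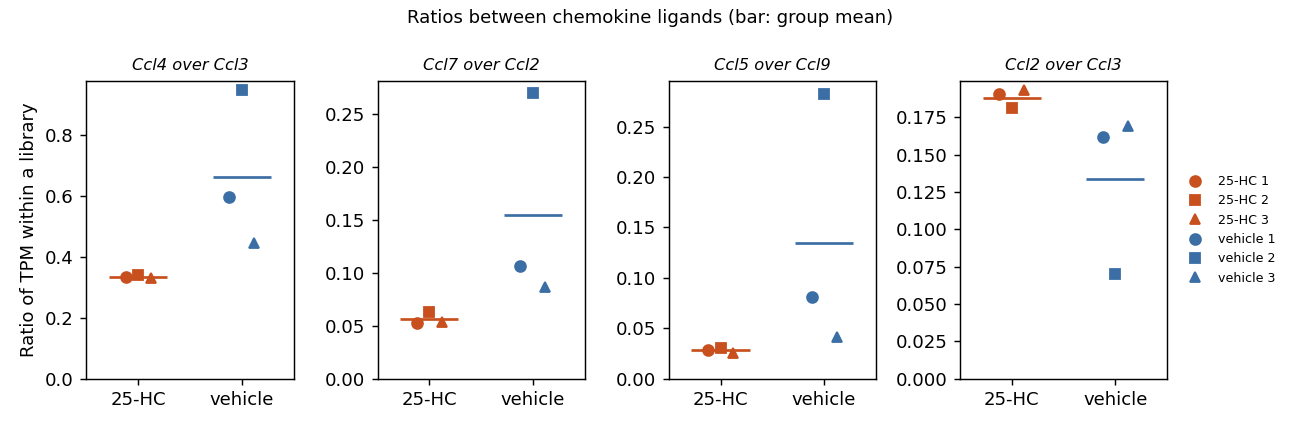
Ratio of the TPM of 2 ligands within each library, for 4 pairs chosen after their values were seen, with 25-HC left of vehicle, symbols for replicate numbers and bars for group means, on linear axes from 0. Ccl4 over Ccl3 was 0.330 to 0.342 in 25-HC and 0.444 to 0.945 in vehicle, and vehicle 2 is the extreme point in all 4 panels. Of these pairs only Ccl5 over Ccl9 joins ligands of different transcript length classes. Ratios without overlap were found in 37.3% of all pairs of tested genes above 0 in every library.

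Ccl5 (RANTES), which attracts T cells and monocytes and is known as inducible by interferon and by NF-kB, was the ligand with lower transcript in all treated libraries. It was at 13.6, 15.1 and 13.1 TPM in 25-HC and at 27.9, 38.0 and 20.3 TPM in vehicle. Each vehicle library was above each treated one, and vehicle 2, the lowest library for Ccl2, Ccl3 and Cxcl2, was the highest for Ccl5. The mean was 13.9 ± 1.08 TPM in 25-HC and 28.7 ± 8.91 TPM in vehicle (SD, n = 3 each), a fold of 0.485, with a log2 difference of -0.95 (SE 0.31, adjusted p = 0.389 by limma, lower in 3 of 3 treated libraries). The difference was below 0 in all 19 other settings, from -0.51 against vehicle 3 alone (fold 0.687) to -1.56 after median-ratio rescaling, with an adjusted p between 0.0535 and 0.62. It was -0.91 after correction for transcript length and -0.73 without vehicle 2. The groups did not overlap as deposited, so leaving out libraries or changing the pseudocount, filter or model could not turn the sign. Only a rescaling or correction could have done so.

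Ccl6 and Ccl9 are rodent CC ligands that act through Ccr1. Ccl9 was at 481, 490.2 and 508 TPM in 25-HC and at 346, 135 and 485 TPM in vehicle. Vehicle 3 fell between the treated libraries, so the groups overlapped, and the log2 difference was 0.80 (SE 0.46, adjusted p = 0.391 by limma), with 0.27 without vehicle 2 and 0.025 against vehicle 3 alone. After length correction it was 0.22 (adjusted p = 0.423 by limma). Set against Ccl9, Ccl5 stood at 0.0282, 0.0309 and 0.0257 in 25-HC and at 0.0806, 0.282 and 0.0418 in vehicle, without overlap, as in 37.3% of all gene pairs. By transcript length Ccl5 is in class 1 of 6 (shortest) and Ccl9 in class 3. Relative to 25-HC, the medians of these classes were 0.18 and -0.29 in vehicle 1. They were -0.051 and -1.32 in vehicle 2, and 0.051 and 0.094 in vehicle 3. The part of length in this ratio was not tested. Ccl6 was near the filter, at 1.5 to 2.16 TPM in 25-HC and 1.14 to 1.87 TPM in vehicle (log2 difference 0.20, adjusted p = 0.596 by limma), and its sign turned under 5 other settings. Ccl6 overlaps E230016K23Rik on the opposite strand, which was at most 0.36 TPM.

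Cxcl2 (MIP-2), a neutrophil attractant that acts through Cxcr2, was at 392, 372 and 382 TPM in 25-HC and at 247, 38.7 and 425 TPM in vehicle. The treated libraries lay above vehicle 1 and 2 and below vehicle 3. The log2 difference was 1.25 (SE 0.84, adjusted p = 0.401 by limma), 0.24 without vehicle 2 and -0.15 against vehicle 3 alone. Its deviation in vehicle 2, -3.27 relative to the 25-HC mean, compares with a median of -0.98 for all genes of its length class, and Ccl2 deviated by -3.60 where the class median was -0.051.

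Cxcl10 (IP-10), a classical interferon-induced ligand of Cxcr3, was barely detected, at 2.58, 2.13 and 1.83 TPM in 25-HC and at 1.30, 0.09 and 2.22 TPM in vehicle. The groups overlapped, as vehicle 3 was above 2 of the treated libraries (log2 difference 0.66, SE 0.44, adjusted p = 0.399 by limma). The difference was 0.22 without vehicle 2, 1.00 without vehicle 3, -0.025 against vehicle 3 alone, 0.20 after length correction and 1.41 with a pseudocount of 0.1. Cxcl16, which is made as a membrane-anchored ligand of Cxcr6 and also binds oxidised lipoprotein, was the most even of the 10. It was at 7.11, 6.71 and 5.95 TPM in 25-HC and at 6.29, 7.58 and 5.98 TPM in vehicle, with a log2 difference of -0.0022 (SE 0.26, adjusted p = 0.996 by limma) that became -0.58 after median-ratio rescaling. The genes that overlap Cxcl10 and Cxcl16 on the opposite strand in GENCODE M21, Art3 and Zmynd15, were at most 0.91 and 0.16 TPM, and that of Ccl2, Gm17268, was listed at 0 in all libraries.

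**Figure D3:**
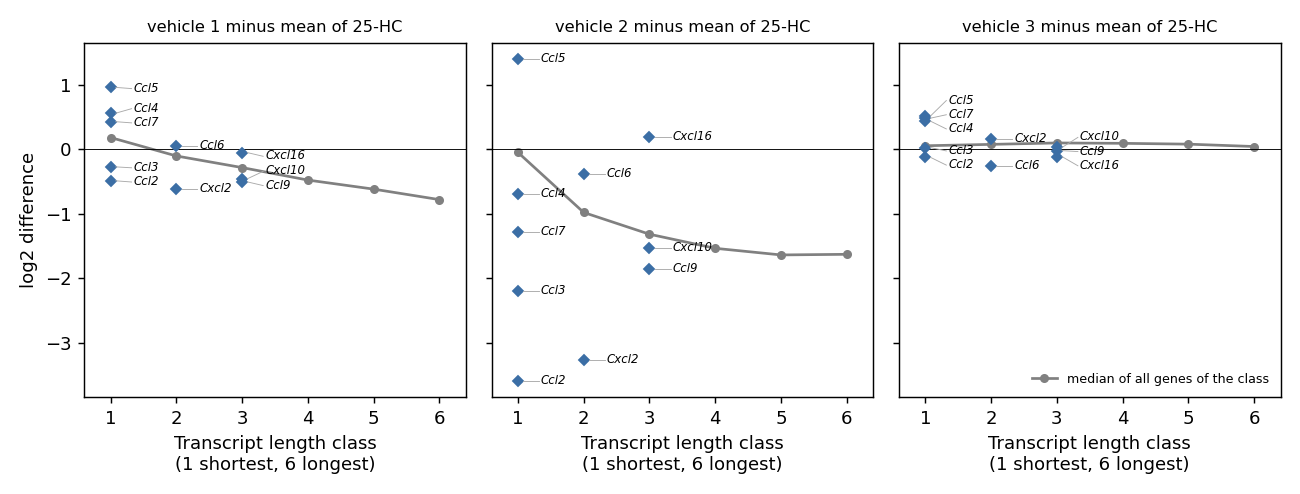
Log2 difference between each vehicle library and the mean of the 25-HC libraries, for the 10 ligands (blue diamonds) and for the median of all genes (grey line) in 6 classes of transcript length from shortest to longest. In vehicle 2 Ccl2 at -3.60 and Cxcl2 at -3.27 lie far below the medians of their classes and Ccl5 lies above, while in vehicle 3 all ligands lie between -0.26 and 0.51.

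The make-up of the ligand messages, as each ligand's share of their summed TPM, removes the difference in total between libraries. Ccl3 took 54.3%, 54.6% and 54.1% in 25-HC and 49.1%, 42.0% and 51.4% in vehicle. Ccl4 took 18.01%, 18.6% and 17.8% in 25-HC and 29.2%, 39.7% and 22.8% in vehicle. The share of Ccl3 was thus higher, and that of Ccl4 lower, in every treated library than in every vehicle library. Ccl2 took 10.3%, 9.88% and 10.5% in 25-HC and 7.95%, 2.93% and 8.71% in vehicle. Ccl9 took 8.98% to 9.48% in 25-HC and 7.04% to 8.86% in vehicle, and Cxcl2 took 6.81% to 7.35% in 25-HC and 2.55% to 7.36% in vehicle. Ccl7 took 0.541% to 0.623% in 25-HC and 0.752% to 0.850% in vehicle, and Ccl5 took 0.244% to 0.277% in 25-HC and 0.351% to 2.50% in vehicle. Of the 10 shares, 3 separated upward (Ccl2, Ccl3 and Ccl9) and 3 downward (Ccl4, Ccl5 and Ccl7). With all genes scaled by the same ligand sum, 19.5% separated upward and 14.8% downward. Shares of 1 whole are not independent, since a lower share of Ccl4 raises the others.

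**Figure D4:**
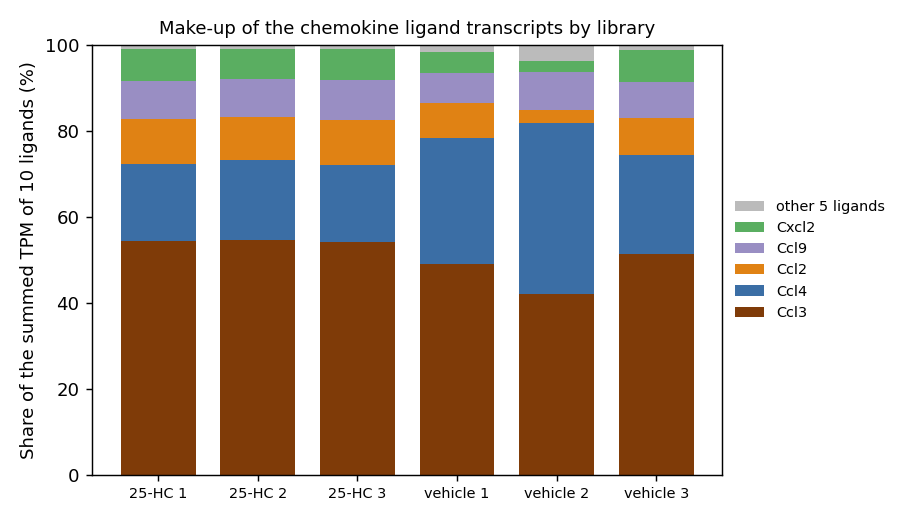
Share in percent of each ligand in the summed TPM of the 10 ligands, as stacked bars from 0 to 100 for the 3 libraries of 25-HC and then the 3 of vehicle. Ccl4 takes 17.8% to 18.6% in 25-HC and 22.8% to 39.7% in vehicle.

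All 45 ratios between ligands were then examined. In 19 of them (42.2%) the treated and vehicle libraries did not overlap, against 37.3% of all pairs among the 11391 tested genes above 0 in every library, a share close to the background. The separated ratios were unevenly spread over the ligands. Ccl5 was lower relative to 8 of the 9 others, and Ccl4 and Ccl7 were each lower relative to 5, with Ccl4 higher relative to 1 (Ccl5). Ccl2 was higher relative to 4 (Ccl3, Ccl4, Ccl5 and Ccl7) and lower relative to none. Over all other genes, Ccl5 was lower in ratio without overlap against 76.9%, Ccl4 against 53.0% and Ccl7 against 41.6%, while Ccl2 was higher against 38.0%. How many genes reach such shares was not counted. Ccl2, Ccl4, Ccl5 and Ccl7 are all in the shortest sixth by length, where the medians of vehicle 1 and 2 were highest. The part of transcript length in these shares was not tested.

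Other scalings kept the order of the ligands at its ends but not the signs in the middle. Ccl5 had the lowest log2 difference of the ligands tested as deposited and in all 19 other settings (8 ligands with a mean of at least 5 TPM, 10 otherwise), and Ccl2 the highest in all but the comparison with vehicle 3 alone, where Ccl6 was highest. After median-ratio rescaling Ccl2 and Ccl9 separated upward and Ccl4, Ccl5 and Ccl7 downward, where 18.7% of all genes did so upward and 17.9% downward. There Ccl4 stood at 760.2, 819 and 761 rescaled TPM in 25-HC and at 1478, 1477 and 1000.2 in vehicle, a fold of 0.592. After length correction 3 ligands separated upward and 1 downward, where 17.1% and 18.7% of all genes did so. The log2 difference of Ccl4 was then -0.050. Without vehicle 2, on the deposited values, Ccl2 separated upward and Ccl4, Ccl5 and Ccl7 downward, where 23.6% of all genes did so upward and 16.9% downward. Without vehicle 1, 2 ligands separated upward and 1 downward, against 24.4% and 9.23% of all genes, and without vehicle 3, 5 upward and 1 downward, against 59.5% and 13.2%. Without 25-HC 1, 2 ligands separated upward and 1 downward, against 24.8% and 9.41%. Without 25-HC 2 or 25-HC 3 the count was 1 and 1, against 27.1% and 9.6% or 25.0% and 9.3%. The background was 18.6% upward and 17.3% downward after quantile normalization, 17.1% and 18.7% after length correction, 16.9% and 17.4% after length and GC correction, and 28.5% and 45.7% against vehicle 3 alone.

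**Figure D5:**
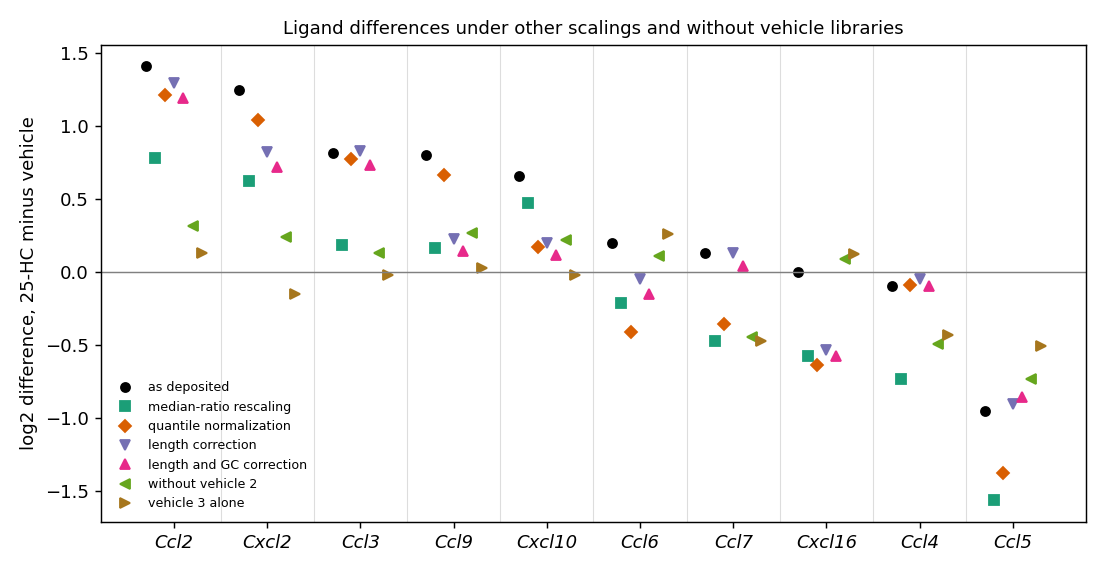
Log2 difference between 25-HC and vehicle (y axis) for each ligand as deposited, under 4 other scalings or corrections, without vehicle 2 and against vehicle 3 alone. Ccl5 lies below 0 in all 7, from -0.51 to -1.56, while Ccl2 lies above 0 in all 7, from 0.13 to 1.41. As neither ligand overlapped between groups as deposited, only the 4 other scalings or corrections could have turned these signs.

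By the rule set for the most similar profile (highest Pearson r of log2 values after median-ratio rescaling over the 6 libraries, as a description), Ccl5 was closest to Otub1, Ccl2 to Mpc1, Ccl3 to Cct2, Ccl4 to Rpa2 and Cxcl2 to Carm1, and the r of the 10 best matches was 0.987 to 0.9998. All such values share the same libraries. Among the ligands themselves, Ccl2 and Cxcl2 were closest to each other (r = 0.981). Ccl4 was closest to Ccl5 (r = 0.885) and Ccl7 to Ccl4 (r = 0.795), while Ccl5 was closest to Cxcl16 (r = 0.939).

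Of 27 other chemokine ligands listed, 24 had a mean below 1 TPM, with no value above 0.88 TPM, and 11 were listed at 0 in all libraries. The 3 measured ones, Ccl25, Cxcl14 and Cx3cl1, overlapped between groups, and Ccl25 was at 6.26 to 9.96 TPM in 25-HC and 4.43 to 8.69 TPM in vehicle. Of 14 receptors listed, 3 were measured and none was called. Cxcr3, the receptor of Cxcl10, was at 13.6, 15.3 and 14.1 TPM in 25-HC and at 13.2, 3.10 and 16.3 TPM in vehicle, with overlap. Ccrl2, an atypical receptor that presents chemerin, separated upward, at 4.12, 4.47 and 4.29 TPM in 25-HC and 1.63, 0.67 and 2.53 TPM in vehicle (log2 difference 1.08, SE 0.35, adjusted p = 0.389 by limma). Ccrl2 was named after its values were seen.

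Of 10 genes for the release and retention of chemokines, 7 were measured, none was called, and 2 of the 7 separated upward, near the 22.6% of all tested genes. Adam10, the main protease that sheds Cxcl16, was at 19.4, 17.1 and 18.5 TPM in 25-HC and at 6.92, 3.24 and 17.8 TPM in vehicle, with overlap as deposited and none after median-ratio rescaling. Adam17, a related sheddase, separated upward, at 34.4, 31.0 and 35.6 TPM in 25-HC and at 7.90, 0.56 and 24.7 TPM in vehicle (log2 difference 2.29, SE 0.97, adjusted p = 0.389 by limma). Vehicle 2 was the lowest library for both.

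All 18 listed regulators of chemokine transcription and message stability were measured and none was called. Of these, 8 separated upward and none downward, or 7 upward and 2 downward after median-ratio rescaling, against 22.6% and 8.1% of all genes as deposited and 18.7% and 17.9% after rescaling. Nfkb1, an NF-kB subunit, was at 78.0, 75.2 and 77.6 TPM in 25-HC and at 38.5, 3.99 and 72.9 TPM in vehicle. Nfkbia, the inhibitor that NF-kB itself induces, overlapped, at 205 to 214 TPM in 25-HC and 9.34 to 239 TPM in vehicle. Irf7 and Irf9, transcription factors of the interferon response, were at 26.8 ± 1.69 and 18.5 ± 1.72 TPM in 25-HC and at 9.91 ± 1.64 and 5.97 ± 4.05 TPM in vehicle (SD, n = 3 each). Both separated upward as deposited, and Irf7 overlapped after median-ratio rescaling. Zfp36 (tristetraprolin), which destabilises AU-rich messages, was at 32.3 to 33.4 TPM in 25-HC and at 26.2, 1.87 and 55.0 TPM in vehicle, with overlap. The part of the vehicle 1 and 2 length trend in these differences was not tested.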

How the data were processed

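RNA of 6 RAW264.7 libraries, 3 given 25-HC and 3 vehicle, was prepared with a TruSeq kit, per the labels' protocols. The submitters' processing notes name the build GRCm39 and, without version or order, RSEM, StringTie and HISAT2. A single gene table of TPM was deposited by the authors, with equal totals in all libraries. TPM holds no counts, so no counting interval can be given.

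A trended, two-sided limma fit (limma 3.58.1, R 4.3.3) of log2 values with a pseudocount of 1 used all 6 libraries and the 12092 genes averaging 1 TPM or more, adjusted by Benjamini-Hochberg and called below 0.05. Such differences understate low genes. No value was imputed. Descriptions used scipy 1.17.1, numpy 2.4.6 and pandas 2.3.3 under Python 3.11.15, and figures matplotlib 3.10.9. The members, gene lists and settings were chosen with earlier results of these data known. Genes of the lists with a mean of at least 5 TPM could be named, and others are said to be chosen later. Lengths and GC content are those of the longest GENCODE M21 transcript, matched by identifier for 92.1% of tested genes, and M21 also gave which genes overlap. Its coordinates are not printed, since the files' build is another. The length correction subtracts a loess trend per library (span 0.75, degree 2). The limma step was tested on simulated data with the same small spread in both groups. The real vehicle libraries were far more scattered, so that test does not show how the step performs on them. One receptor of the lists is not reported here.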

Additional observations from a re-analysis of the deposited data

How the results depend on the processing

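As deposited, 1 gene was called higher and 0 lower (limma), with 996 and 356 at an unadjusted p under 0.05. Counts called higher were 0 with a pseudocount of 5, no filter, a mean of at least 5 TPM or the replicate block, 4 (and 1 lower) after quantile normalization, 16 and 3 after length correction, 14 and 0 after length and GC correction (chosen after seeing the data), 547 and 765 against vehicle 3 alone; 1 was called lower after median-ratio rescaling and after scaling by the ligand sum. Leaving out 1 library gave 0 to 671 higher and 0 to 51 lower, both highest without vehicle 3; 9 and 4 were called without vehicle 2.

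Ligands separated upward and downward were 1 and 1 as deposited (22.6% and 8.1% of all genes), 2 and 3 after median-ratio rescaling (18.7% and 17.9% of all genes), 3 and 3 after scaling by the ligand sum (19.5% and 14.8%), 2 and 1 after quantile normalization (18.6% and 17.3%), 3 and 1 after length correction (17.1% and 18.7%), and 2 and 4 against vehicle 3 alone (28.5% and 45.7%). Without 1 library they were 1 to 5 upward (23.6% to 59.5% of all genes) and 1 to 3 downward (9.23% to 16.9%). Signs turned for Ccl6 (-0.21 after median-ratio rescaling, -0.41 after quantile normalization, -0.22 after scaling by the ligand sum, -0.049 after length correction, -0.15 after length and GC correction) and Ccl7 (-0.48, -0.36 and -0.46 in the first 3 of these). Against vehicle 3 alone, the log2 differences of Ccl3, Ccl7, Cxcl2, Cxcl10 and Cxcl16 turned to -0.022, -0.48, -0.15, -0.025 and 0.12, and Ccl4 passed the threshold at -0.43. Without 1 library, values ranged from -0.49 to 0.13 for Ccl4, -0.45 to 0.43 for Ccl7 and -0.062 to 0.087 for Cxcl16. The cause of these turns was not tested.

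The replicate block left every ligand uncalled, with an adjusted p of at least 0.415 (limma) and 0 genes called. Deviations of libraries of the same number had an r of -0.013, 0.056 and 0.030 across genes, which are not independent replicates. For libraries of unlike number r was -0.079 to 0.053. The 25-HC libraries hardly varied, so these values cannot show whether libraries of the same number share a culture or batch. No depth is known, which limits what can be said of Ccl6 and Cxcl10.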

Other observations

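Genes were also grouped by the heptamer TATTTAT in the longest 3' untranslated region of GENCODE M21. Relative to the 25-HC mean, after correction for transcript length, the median log2 difference in vehicle 2 was 0.036 for 7088 genes without it, -0.20 for 1849 genes with 1 and -0.13 for 954 genes with 2 or more. In vehicle 1 the medians were 0.051, -0.088 and -0.12, and in vehicle 3 they were 0.021, 0.028 and -0.0066. By deposited values, not corrected for length, Ccl2 (no such heptamer, -3.60) and Cxcl2 (7 heptamers, -3.27) were the ligands farthest below 25-HC in vehicle 2. Ccl3 and Ccl4, with 1 heptamer each, were at -2.19 and -0.69. The part of the heptamer in these values was not tested.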
